A study of Mus musculus with 32 samples.

Results

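Of the 28 single cells of this series, 7 held doublecortin (Dcx) RNA at an FPKM of at least 1, and these Dcx cells are described here. FPKM counts the fragments on a transcript relative to its length in kilobases and to 1000000 fragments mapped, so levels of different genes can be compared within a cell, while differences between cells also depend on how the libraries are scaled. The series comprises 32 mouse libraries, 28 from 1 cell each and 4 from pools of 10 cells, all from the subventricular zone of the forebrain at postnatal day 21. No genotype, strain, sort or treatment is given, and no animal is named. The 7 Dcx cells therefore count as 1 sample, as do the 17 cells they are compared with, and no test was run: every comparison is a description of these libraries.

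The subventricular zone lines the lateral ventricle and holds neural stem cells that keep producing neurons after birth. Their neuronal progeny, the neuroblasts, migrate along the rostral migratory stream to the olfactory bulb, where most become GABAergic interneurons. Dcx, a microtubule-binding protein of migrating neurons, is the usual marker of this stage, and transcription factors of the Dlx family direct it and activate the genes of GABA synthesis.

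The Dcx cells were cells 21, 23, 24, 25, 26, 27 and 28, and values for the 7 are given in that order unless a cell is named. Dcx, on chrX:143855842-143933311 of GRCm38 (minus strand, protein-coding), was listed at 1.54, 182, 24.4, 261, 564, 24.1 and 383 FPKM. Cells 23, 25, 26 and 28 were high, cells 24 and 27 were lower, and cell 21 lay just above the threshold. Just outside it were cell 6 at 0.467, the highest of cells 1 to 17, and cell 22 at 0.0582. The pools reached 0.219. These values chose the cells and are no finding.

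**Figure D1:**
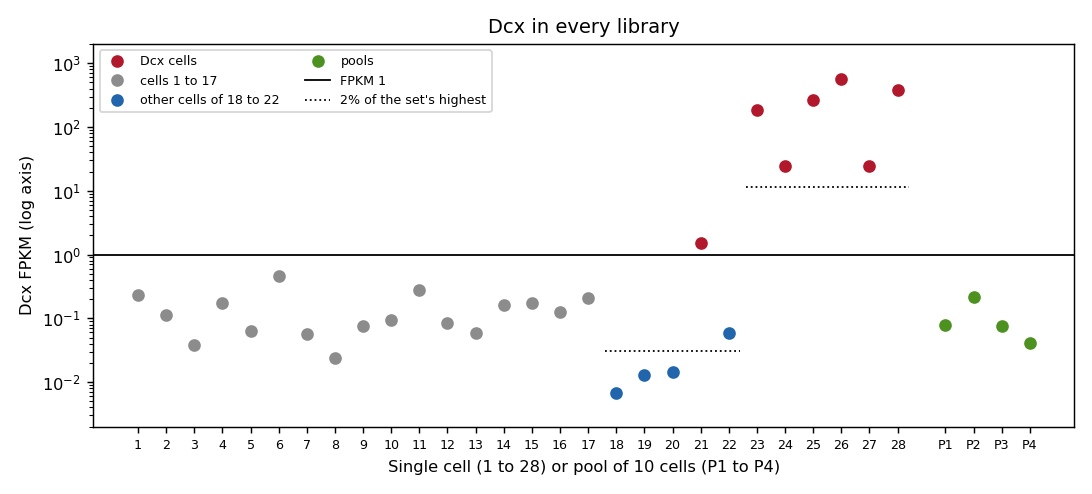
Dcx FPKM on a log axis in each single cell and pool (1 point per library). The 7 Dcx cells lie above the line at FPKM 1, cells 1 to 17 lie at or below 0.467, and cells 24 and 27 lie above the dotted line at 2% of the highest value among cells 23 to 28.

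All Dcx cells fall among cells 18 to 28, and within that run the libraries form 2 sets, 18 to 22 and 23 to 28. Within each set, genes high in 1 cell are listed at low values in the others. The source of these low values was not tested. Among 611 genes that were at 500 FPKM or more in 1 cell of the set of 18 to 22 and at most 5% of that in the rest, 98.7% of the other values were above 0, with a median of 0.343% of the highest value. The figures for 23 to 28 were 662 genes, 97.6% and 0.292%, while in cells 1 to 17 only 15.1% of such values were above 0 (140 genes). There the rule spanned 17 cells rather than 5 or 6, so the choice of genes was stricter. Values under 2% of a gene's highest in the set were therefore treated as possible carry-over, and results are given as deposited and again with those values put at 0, called the 2% limit. Dcx itself passed it in all 7 cells, but cells 24 and 27 stood at only 4.33% and 4.27% of cell 26 and were no longer counted with a limit of 5%, which left 5 cells.

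The Dcx cells and cells 1 to 17 also differ as libraries. A Dcx cell had 2424 to 5056 genes found, meaning at FPKM 1 or more (median 3714), against 3062 to 10169 (median 5932) in cells 1 to 17. MicroRNA loci took 26.6 to 39.9% of the summed FPKM in cells 23 to 28 and 1.82% in cell 21, against a median of 8.59% in cells 1 to 17. The step left by a single fragment was clear in each of cells 1 to 17, which puts them at about 6.24 to 20.7 times 1000000 fragments, and in no Dcx cell, so the depth of the Dcx cells is not known. Library set and Dcx state cannot be told apart for any difference from cells 1 to 17, whereas cells 18, 19, 20 and 22 share a set with cell 21 and give a comparison within it.

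The label of neuroblast was set beside 11 other neuroblast markers. The list was chosen with earlier results of these data known, and Dlx6os1, Gad2 and Stmn2 are in it. The level of these markers therefore describes the cells and does not test the label. Their mean log2(FPKM + 1) was 4.13 to 6.10 in the Dcx cells and at most 1.79 in cells 1 to 17. It led over the marker lists of 9 other cell types in cells 23 to 28. In cell 21 the microglial list stood higher as deposited (4.81 against 4.20) and the neuroblast list higher with the 2% limit (3.88 against 1.62). The name neuroblast-like is used as a description for cells 23 to 28, and for cell 21 only once low values are set aside.

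Among all 13387 genes found in at least 3 of these 24 cells, a small set stood out. Only 20 genes were higher in every Dcx cell than in every one of cells 1 to 17, which is 0.149% of those compared, and with the 2% limit 6 remained (0.0455% of 13197): Dcx itself, Dlx1, the noncoding RNA Dlx6os1, Stmn1, Ccnd2 and the transcript Gm14148. Beyond these the 20 held Dlx5, Gad2, Crmp1, Stmn3, Nrxn3, Mex3a, Aldh18a1, Fxyd6, Mfap2, Vav2, Gm25241, Gm3200 and the Evf1_1 and Evf1_2 features, which overlap Dlx6os1. Dcx is in these counts because it chose the cells, and Dlx6os1 and Gad2 are among the markers chosen with earlier results known, so none of these 3 is a finding. Cell 21 decided much of the count of 20: without it 76 genes passed as deposited and 30 with the 2% limit.

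Dlx1 and Dlx6os1 were found in all 7 Dcx cells and are listed at 0 in all of cells 1 to 17. Their levels did not follow that of Dcx from cell to cell. Since all 3 genes were found in each of the 7 cells, their promoters are shown, each from 250 bases before to 50 bases after a transcription start, from RefSeq on GRCm38.p6. Capitals mark TAATTA, a core sequence that homeodomain proteins such as the Dlx factors can bind. It reads the same on both strands.
Dcx, first of 2 starts (chrX:143933170-143933469, minus strand): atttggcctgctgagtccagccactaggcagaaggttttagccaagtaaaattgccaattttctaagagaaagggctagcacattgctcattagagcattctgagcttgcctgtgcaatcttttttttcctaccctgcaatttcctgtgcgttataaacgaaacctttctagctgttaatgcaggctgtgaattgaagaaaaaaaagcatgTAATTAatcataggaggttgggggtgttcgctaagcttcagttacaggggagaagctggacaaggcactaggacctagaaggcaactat
Dlx6os1, first of 2 starts (chr6:6869484-6869783, minus strand): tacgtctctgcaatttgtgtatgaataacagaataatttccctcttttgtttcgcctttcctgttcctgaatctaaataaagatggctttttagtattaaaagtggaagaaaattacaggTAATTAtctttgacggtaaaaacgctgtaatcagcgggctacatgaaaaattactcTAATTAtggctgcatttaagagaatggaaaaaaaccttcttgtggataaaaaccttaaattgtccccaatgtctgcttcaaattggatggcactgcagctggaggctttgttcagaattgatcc
Dlx1 (chr2:71529195-71529494, plus strand): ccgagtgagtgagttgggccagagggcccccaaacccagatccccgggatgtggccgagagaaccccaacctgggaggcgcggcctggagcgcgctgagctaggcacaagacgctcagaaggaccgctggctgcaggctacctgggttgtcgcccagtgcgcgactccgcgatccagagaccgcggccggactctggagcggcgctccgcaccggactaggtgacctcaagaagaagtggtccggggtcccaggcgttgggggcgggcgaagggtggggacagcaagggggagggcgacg

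TAATTA begins 39 bases before the Dcx start and 130 and 74 bases before the Dlx6os1 start, and it is not in the Dlx1 window. Of 32851 RefSeq promoters of this length, 5.29% hold it. Of 9 genes looked up, 5 have an entry in the RefSeq table: Dcx and Dlx6os1 hold TAATTA, and Dlx1, Gad2 and Crmp1 do not hold it. Dlx5, Dlx6, Stmn1 and Stmn2 have no entry. Finding the letters in a window is a description only.

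The Dlx genes and their partners were the transcription factors that separated the Dcx cells most. Dlx1 (chr2:71528113-71533981, plus strand), a homeobox factor of the ventral forebrain, was at 514, 543, 1177, 2122, 2994, 4894 and 555 FPKM. It was high in every Dcx cell, with cell 27 highest, and the groups do not overlap. Cell 22 had 523, like cells 21 and 23, while cells 18 to 20 reached 12.1.

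Dlx6os1 (chr6:6820189-6871592, minus strand), an antisense RNA at the Dlx5 and Dlx6 locus, was at 622, 314, 1302, 127, 395, 28 and 606 FPKM. Cell 27 was lowest and cell 24 highest, and all lay above the zeros of cells 1 to 17 and of the pools. The counting is not stated to use strand, so reads of Dlx6os1 and of the genes it overlaps cannot be told apart. Dlx6 was high in cell 23 alone, at 1374 FPKM, and at most 11 in the other Dcx cells.

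Dlx5 was at 1.85, 1033, 37.5, 33.5, 1.37, 3.35 and 22.3 FPKM, so that 1 cell carried most of it and only 4 of the 7 passed the 2% limit. Dlx2 likewise varied, from 0.193 in cell 21 to 345 in cell 23, with 247 in cell 27. Sox4, a factor of newborn neurons, was more even at 28, 208, 310.0, 99.8, 895, 545 and 530.0 FPKM against a highest value of 40.5 in cells 1 to 17; only cell 21 fell inside their range. Sox11, its relative in the same step, was found above the limit in cell 25 only (61.4).

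Other regulators marked single cells. Meis2, a partner of Dlx proteins in olfactory bulb neurons, reached 1658 FPKM in cell 24 and 2.65 and 1.59 in cells 26 and 27. Nr2f1 (COUP-TFI) was at 1884 in cell 25 and at most 61.3 elsewhere. Bcl11b was at 405 in cell 23 and 116 in cell 28, and Sp9 at 195 in cell 28.

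Over the whole list of 24 factors compared, 12 were 4-fold or more higher in the Dcx cells by the difference of mean log2(FPKM + 1), and none was 4-fold lower. With the 2% limit 10 were. Their median difference was 2.22 (limit 1.23). For all 13387 genes, 618 were that much higher (4.62%; with the limit 241, 1.83%) and 2473 that much lower (18.5%; with the limit 2843, 21.5%), with a median of -0.84 (limit -0.97). The lists and members were chosen with earlier results of these data known, so these shares describe and do not test. Counts for the later lists are to be read beside the same shares of all genes.

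**Figure D2:**
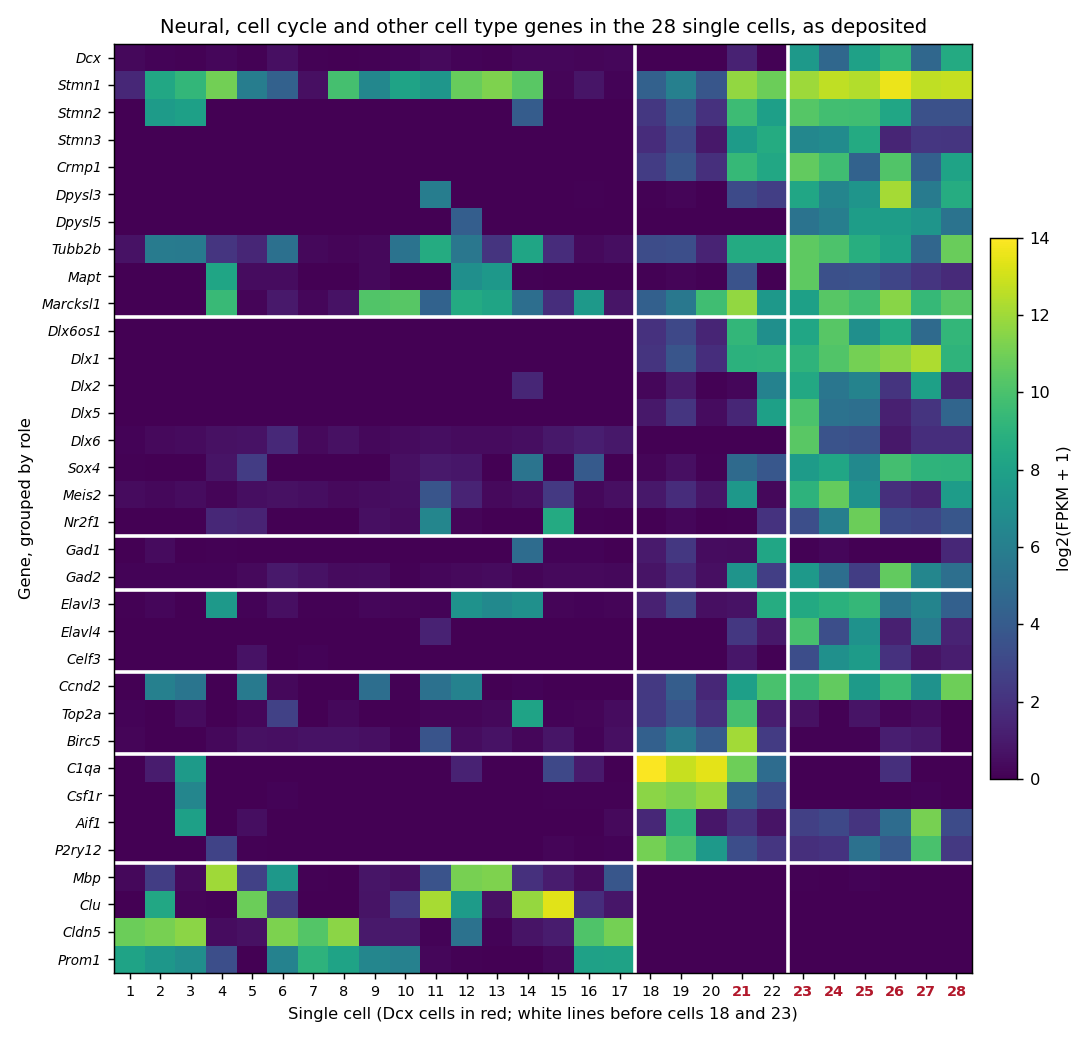
Levels of genes grouped by role in the 28 single cells as log2(FPKM + 1), as deposited. Dlx1, Dlx6os1, Stmn1 and Ccnd2 are bright in each Dcx cell (red numbers), Gad1 is bright in cell 22 but not in them, and C1qa is bright in cells 18 to 21.

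Microtubule and growth cone genes were the other strong group, as deposited 18 of 24 compared being 4-fold or more higher, with none lower and a median difference of 3.78. With the 2% limit 16 of 24 were, and the median was 2.82. Stmn1 (chr4:134468320-134473843, plus strand), a tubulin-binding protein, was the most abundant, at 3363, 3944, 6523, 5408, 12371, 6458 and 6892 FPKM against a highest value of 2533 (cell 13) in cells 1 to 17. All 7 lay above that value, and cell 26 stood highest.

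Stmn2, its neuron-specific relative, was at 767, 1291, 880.2, 837, 316, 9.93 and 9.96 FPKM. The first 5 values were high, whereas cells 27 and 28 were under 2% of cell 23. Cell 3 held 248, so the groups overlap. Stmn3 was found above the limit in cells 21, 23, 24 and 25, at 109 in cell 24 for example, and is listed at 0 in all of cells 1 to 17. Stmn4 belonged to cell 23 (183 FPKM).

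The collapsin response mediator proteins, which couple guidance cues to microtubules, were spread over different cells. Crmp1 was at 668, 1592, 835, 20.5, 1156, 18.5 and 274 FPKM and is listed at 0 in cells 1 to 17, but cells 25 and 27 fell under the 2% limit. Dpysl3 peaked at 4507 FPKM in cell 26, Dpysl4 at 1199 in cell 27, and Dpysl5 lay between 38.9 and 224 in cells 23 to 28 with 0 in cell 21. Dpysl2 had a median of 0.733 in the Dcx cells and 19.5 in cells 1 to 17, a difference of mean log2(FPKM + 1) of -0.71 that became 1.45 when cells were scaled to the same upper quartile, so no direction is given for it.

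Neuronal tubulins and their partners followed. Tubb2b was at 369.7, 1479.9, 1096, 441, 268, 23.3 and 1752 FPKM and Tubb2a at 793, 3464, 482, 204, 121, 6.67 and 1340.3, low in cell 27 for both; the 2 genes are close copies, so their split is uncertain. Mapt (tau) was at 1479 in cell 23 and at most 11.2 in the rest. Map2, a dendritic partner, was at 155 in cell 25 and 46.7 in cell 24. Marcksl1, an actin-binding protein of growth cones, passed the limit in all 7 cells, at 3348, 244, 1297, 860.3, 2971, 671 and 1327 FPKM. Gap43, the classic growth cone protein, reached only 7.57 (cell 26).

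GABA genes were uneven. Gad2 (chr2:22622205-22693874, plus strand), which makes GABA from glutamate, was at 151, 189, 32, 4.74, 1575, 85.2 and 33 FPKM, above the highest value of 0.938 in cells 1 to 17 in every Dcx cell. Cell 26 was far above the others and cell 25 lay under the 2% limit. Outside the Dcx cells, cell 22 held Gad2 at 5.15, above cell 25, and cells 18 to 20 at most 2.09. Gad1, the other GABA-synthesising enzyme, was at most 2 FPKM in the Dcx cells. The vesicular GABA transporter Slc32a1 was at most 0.0197. Over the 5 GABA genes compared, 1 was 4-fold higher and none lower, and their median difference was 0.80 as deposited and -0.04 with the limit.

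Gabra5, a subunit of the GABA receptor, is listed at 0 in all 7 cells. An exact 0 in this table can be a failed estimate, and Hprt and Tbp, which most cells use, were found in 2 and 0 of the Dcx cells.

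Genes of later neuronal stages differed by list. Of 9 interneuron subtype genes none was found in any Dcx cell, and 8, among them Calb1, Calb2 and Th of olfactory bulb interneurons, are listed at 0 in all 7. Only 1 of the 9 was found in any of cells 1 to 17, and none could be compared. Their absence therefore does not set the Dcx cells apart. Of 6 mature neuron genes compared none was 4-fold higher and 1 was lower, with a median difference of 1.32 (0.45 over 4 genes with the 2% limit). With upper quartile scaling 4 of the 6 were 4-fold higher and none lower (median 2.68). Synaptic genes appeared in single cells, Snap25 at 85.8 and 88 FPKM in cells 23 and 28, and Syn1 and Syp at 197 and 88.4 in cell 26. Of the glutamatergic lineage, Tbr1 alone was found, at 7.56 FPKM in cell 23 and 1.47 in cell 28.

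Of 12 neuronal RNA-binding proteins compared, 6 were 4-fold or more higher and 1 lower (median difference 1.94, limit 1.77). Cells 23, 24 and 25 carried this, with list means of 3.24, 3.15 and 2.71 in log2(FPKM + 1), whereas the other 4 Dcx cells lay between 0.94 and 1.36, within the range of cells 1 to 17 (up to 1.37). Elavl3 was at 0.598, 364, 492, 633, 39.6, 78.3 and 18.9 FPKM, found in cells 23 to 28 but not in cell 21, and Elavl4 peaked at 955 in cell 23. The 4-fold lower member was Ptbp1, a splicing repressor that neurons switch off. It was found in cell 21 only, at 1.98 FPKM, and had a median of 2.88 in cells 1 to 17.

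Migration and guidance genes stood apart cell by cell. Cd24a, a surface protein of neuroblasts, was at 182, 982, 951, 334, 139, 104 and 17.6 FPKM, though cell 15 held 1549. Ncam1, which carries the polysialic acid of migrating chains, was at 931, 457, 332 and 495 in cells 23, 24, 25 and 27 and under 10 in the other 3. Its polysialyltransferases St8sia2 and St8sia4 were found in no Dcx cell. The reelin receptor Lrp8 and the adhesion protein L1cam peaked in cell 28 (1149.7 and 545 FPKM), and Robo2 and Nrxn3 in cell 27 (79.7 and 894).

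Receptors often named for this migration were not seen. Prokr2, Cxcr4 and Gfra1 are listed at 0 in all 7 cells, and Erbb4 and Dcc were at most 0.0455 and 0.014. Over the 19 adhesion and guidance genes compared, 5 were 4-fold or more higher and 2 lower, with a median difference of 0.57. With the 2% limit 2 were higher and 2 lower of 17 (median 0.27). Among all genes compared 4.62% were higher and 18.5% lower (limit 1.83% and 21.5%).

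Cell cycle genes split the Dcx cells. Ccnd2, the D-type cyclin of neural progenitors, was at 238, 739, 1598, 199, 748, 139 and 1904 FPKM, above the 72.9 of cell 12, the highest of cells 1 to 17, in every Dcx cell. Cell 22, which is not a Dcx cell, held 998, and cells 18 to 20 at most 16.2. Ccnd1 is listed at 0 in all 7, and Ccnd3 was found in cell 28 only (9.2). Genes of G2 and mitosis were high in cell 21 and low in the other 6: Birc5 4307, Ube2c 1549, Cenpa 1473, Plk1 1100.2, Top2a 929 and Ccnb2 718 FPKM, each at most 1.24 in the other 6. The mean of the 14 G2 and mitosis genes was 6.60 on the log2(FPKM + 1) scale in cell 21 and 0.16 to 0.94 in cells 23 to 28. Mki67 was also found in cell 25 (16.1 FPKM) and Hmgb2 in cells 25 and 27 (232 and 109).

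Over 10 genes of cell cycle exit and the D cyclins, 1 was 4-fold higher (Ccnd2) and 4 were lower (Cdkn1a, Cdkn2d, Btg2 and Ccnd3), with a median difference of -1.69. Of 6 S phase genes compared none was 4-fold higher and 1 was lower, Pcna, the sliding clamp of replication, found in cell 25 only (10.1 FPKM) against a median of 112 in cells 1 to 17. Of 10 chromatin genes 1 was higher (Hmgn1) and 1 lower (Hmgb1), but with the 2% limit Hmgn1 was no longer 4-fold higher (difference 0.78) and H2afz joined Hmgb1 as lower. Of 5 heat shock genes none was higher and 1 lower (Hsp90aa1). Among all genes compared 4.62% were 4-fold higher and 18.5% lower (limit 1.83% and 21.5%). A single lower gene in lists this short is therefore no result about the S phase, chromatin or heat shock list.

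Long noncoding RNAs went both ways, 2 of 8 compared being 4-fold higher and 2 lower. Meg3 and Miat were the higher ones, and with the limit Miat alone (2.72; Meg3 1.03), since Meg3 passed it in cell 28 only. Miat was at 252 FPKM in cell 23 and listed at 0 in cells 1 to 17. Malat1, a nuclear RNA of most cell types, was at 2204, 234, 534, 25.9, 22.7, 7.39 and 1.98 against a median of 828 in cells 1 to 17, high in cell 21 and low in cells 25 to 28. Neat1, another nuclear RNA, was at most 0.0192 in the Dcx cells against a median of 18.1. It reached 0.0038 in cell 22 and 0.00226 in cells 18 to 20.

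Stem and progenitor genes varied. Prom1, Id3, Hes1, Hes5, Fabp7 and Olig2 are listed at 0 in all 7 Dcx cells, and Egfr and Nes stayed under 1 FPKM. Cells 18, 19, 20 and 22 also list Prom1, Id3, Hes1 and Fabp7 at 0. Sox2, by contrast, was at 334, 168, 43.4, 1.92, 8.85, 2.18 and 994 FPKM, highest in cell 28, and Sox9 at 249 in cell 23. Vim, an intermediate filament of progenitors and many other cells, was at 2069, 21.3, 2376, 2735, 14.4, 30.9 and 22.3, so that 3 cells were high and 4 fell under the 2% limit. Of 11 progenitor genes compared 1 was 4-fold higher and 4 lower (median difference -0.85; limit 1, 5 and -1.55), beside -0.84 (limit -0.97) for all genes.

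Outside the lists, 15 protein-coding genes were named for the largest positive difference with the 2% limit among genes found in at least 5 Dcx cells. The leading ones were Nnat, an imprinted membrane protein (201, 3065, 2646, 3252, 1115, 1991 and 1259.7 FPKM), and Rtn1, a neuronal reticulon (260.3, 3842, 3323, 832, 89.6, 1196 and 2178). Nnat overlaps the range of cells 1 to 17 through cell 15 (2109) and Rtn1 through cell 9 (371). The actin regulator Pfn2 ranged from 99.6 to 2402, the G protein subunit Gng2 from 0.517 to 2576, and Nrep from 116 to 1329.6. Differences of the 15, on the log2(FPKM + 1) scale with the limit, ran from 8.81 for Nnat to 4.50 for Trp53i11.

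Aldh18a1, an enzyme of proline synthesis, and Mex3a, an RNA-binding protein, separated the groups as deposited. Aldh18a1 was at 1784, 263, 345, 5.35, 15.1, 1142 and 97.3 FPKM and is listed at 0 in cells 1 to 17, and Mex3a was at 61, 62.1, 63.1, 2.2, 595, 8.54 and 365 against at most 0.517. The others were Uchl1, an abundant neuronal deubiquitinase (599.6 at the median), Dchs1, a large protocadherin (70.5), Hn1 (642), Ccng2 (83.3), Bex2 (179), Nsg2, an endosomal protein of neurons (454), and Trp53i11 (295).

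**Figure D3:**
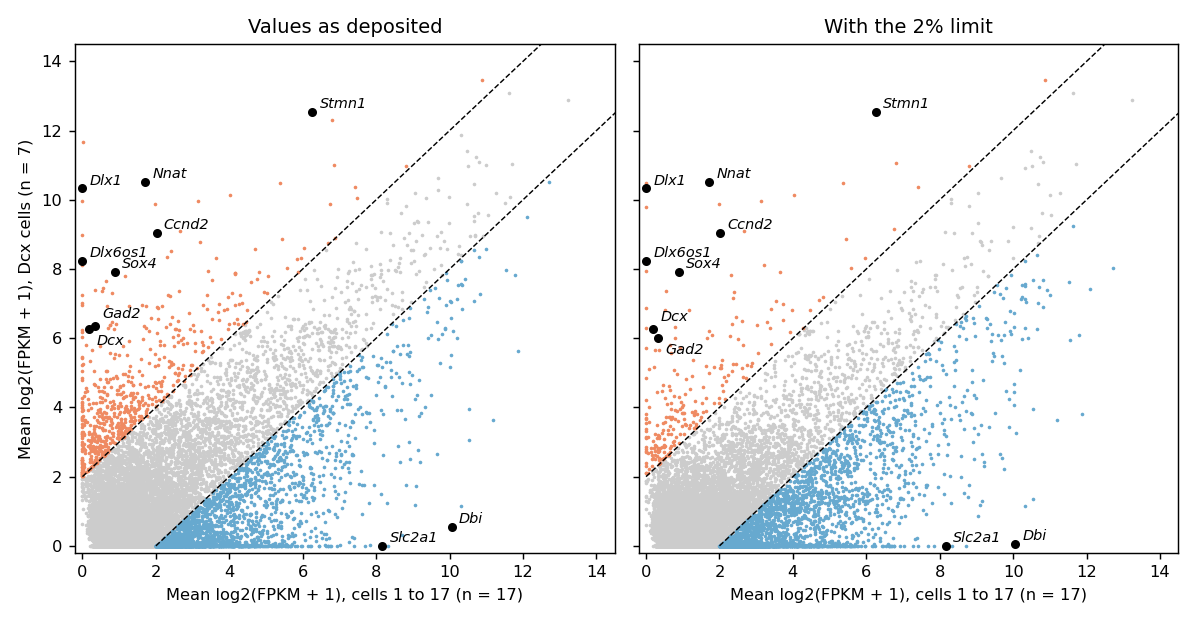
Mean log2(FPKM + 1) in the 7 Dcx cells against the mean in cells 1 to 17 for each gene compared, as deposited (13387 genes) and with the 2% limit (13197). Dashed lines mark 4-fold; orange genes (618 and 241) are higher and blue genes (2473 and 2843) lower in the Dcx cells, with Dlx1 and Nnat at the upper left and Dbi and Slc2a1 at the lower right.

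Genes lower in the Dcx cells were far more numerous, and the 10 named by the largest negative difference are widely expressed or belong to glia and vessels. Dbi, an acyl-CoA-binding protein abundant in glia, was at 10.1, 0.315, 0, 0, 0, 0 and 0 FPKM against a median of 1209 in cells 1 to 17, all of which had it. Slc2a1, the glucose transporter of the blood-brain barrier, is listed at 0 in all 7 against a median of 582. Bsg, Cd81, Sparc, Gpx4, Pltp, Sod1, S100a16 and Prnp had medians of 2.84, 0, 0.418, 0.875, 0, 3.66, 0 and 0 FPKM in the Dcx cells and of 1679, 872, 857, 955, 1341, 711, 365 and 279 in cells 1 to 17.

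Several of these were low in the neighbouring libraries too. Slc2a1 and Prnp are also listed at 0 in cells 18, 19, 20 and 22, Pltp reached 6.52 and Gpx4 1.89 there, whereas Dbi was at 4815 and Sod1 at 2572 in cell 22. Library set and Dcx state cannot be told apart for the genes that are low in both.

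Metabolic genes were lower on average as deposited, a difference that depended on scaling. Of 10 oxidative phosphorylation genes none was 4-fold higher and 4 were 4-fold lower (7 with the limit), with a median difference of -1.66 (limit -2.60). Of all genes compared 18.5% were 4-fold lower (limit 21.5%). Atp5b, a subunit of ATP synthase, was still found in every Dcx cell at 995, 13.9, 196, 521, 1188, 509 and 2299.7 FPKM, while Ndufa4 of the respiratory chain was at 39.4, 0.563, 0.406, 0, 1.24, 67 and 0.699 against a median of 211 in cells 1 to 17. Of 14 housekeeping genes 2 were 4-fold higher and 5 lower (median -1.60), and with the limit 1 and 7 (median -2.03). Gapdh was higher with and without the limit, at 428, 629, 125, 51.4, 1646, 1278 and 83.6 FPKM, with a median of 78.7 in cells 1 to 17, and Actb one of the lower at 324, 791, 526, 386, 257, 362 and 47 with a median of 1598.

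The scale of these libraries decides such moderate differences. When cells were scaled to the same upper quartile of protein-coding values above 0, which was 1.34 to 9.93 FPKM in the Dcx cells and 3.54 to 44.8 in cells 1 to 17, the median difference of all genes moved from -0.84 to -0.05, and 2582 genes were 4-fold higher and 1277 lower. The oxidative phosphorylation median went from -1.66 to -0.08, with 2 genes 4-fold higher and 1 lower. The noncoding RNA median turned from -0.29 to 1.05 and the S phase median from -0.58 to 0.28. The housekeeping median turned to 0.99 and the chromatin list from -0.84 to 1.29, and Actb and Ppia turned from lower to higher. The neuroblast list went from 4.48 to 6.48 and the endothelial list from -4.26 to -4.00, so both kept their direction. Scaling to the same sum of protein-coding values gave 587 genes higher and 2537 lower.

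Immediate early genes, which dissociation of tissue can induce, were lower as deposited, 4 of 8 compared being 4-fold lower and none higher (median -2.67, limit -3.68). Of all genes 18.5% were that much lower. With upper quartile scaling 4 were lower and 2 higher (median -1.35), the higher ones being Jun (difference 2.64) and Egr1 (3.07). Fos was at 12.4, 0.213, 0.399, 34.6, 0.403, 23.1 and 0.0706 FPKM against a median of 228 in cells 1 to 17, 2495 in cell 22 and up to 3121 in cells 18 to 20. Egr1 reached 1525 in cell 26 and Ier2 and Dusp1 1019.7 and 675 in cell 27, so single Dcx cells lay above the medians of cells 1 to 17 for these genes.

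Markers of other cell types were checked for the whole lists. Endothelial markers were found for 1 of 10 genes in the Dcx cells, Pecam1, which was at 4.6 to 14.4 FPKM in cells 23 to 28 and 0.0251 in cell 21, with Cldn5, Ly6c1, Cdh5, Esam, Itm2a and Slco1a4 listed at 0, and the summed level was 0.106 to 14.4 against 1.74 to 21990.2 in cells 1 to 17. Oligodendrocyte markers were found for 3 of 10, led by Cnp at 483 in cell 25, with Mog, Mag, Cldn11, Mal and Opalin at 0. Astrocyte markers were found for 3 of 10, led by Aldoc at 172 in cell 27, with Aqp4, Gja1, Gfap, Aldh1l1, Fgfr3 and Clu at 0. All 5 markers of oligodendrocyte precursors are listed at 0, as are 7 of 8 ependymal, 5 of 6 choroid plexus and 5 of 7 mural markers. Over these 4 lists in that order, 4, 8, 6 and 6 markers were found in at least 1 of cells 1 to 17. Acta2, a mural marker, reached 19.8 FPKM in cell 23 and Hba-a2, an erythroid gene, 10.2 in cell 25.

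Microglial genes were the exception. As deposited 5 of 11 compared were 4-fold or more higher and none lower (median difference 1.50), and with the 2% limit none of 7 was higher or lower (median 0.62). All 12 were found in some Dcx cell as deposited and 9 with the limit. Their summed level as deposited was 18.8 to 4234 FPKM against 0 to 2589 in cells 1 to 17 and 138 to 51757 in cells 18, 19, 20 and 22. Cell 21 held C1qa at 1911 FPKM, which is 12.2% of the highest value in its set, among the microglia-like cells 18 to 20, and 10 of the 12 microglial markers were under 2% in it. Cell 27 held Aif1 at 2242, Ctss at 998 and P2ry12 at 990.3, yet C1qa and Tyrobp at 0 and Csf1r at 0.101. Cell 23 held Trem2 (311). The part of microglial RNA, or of another cell in the same library, in the values of these cells was not tested. Without cells 21 and 27, 887 genes were 4-fold higher, 2370 lower and 86 above every one of cells 1 to 17.

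**Figure D4:**
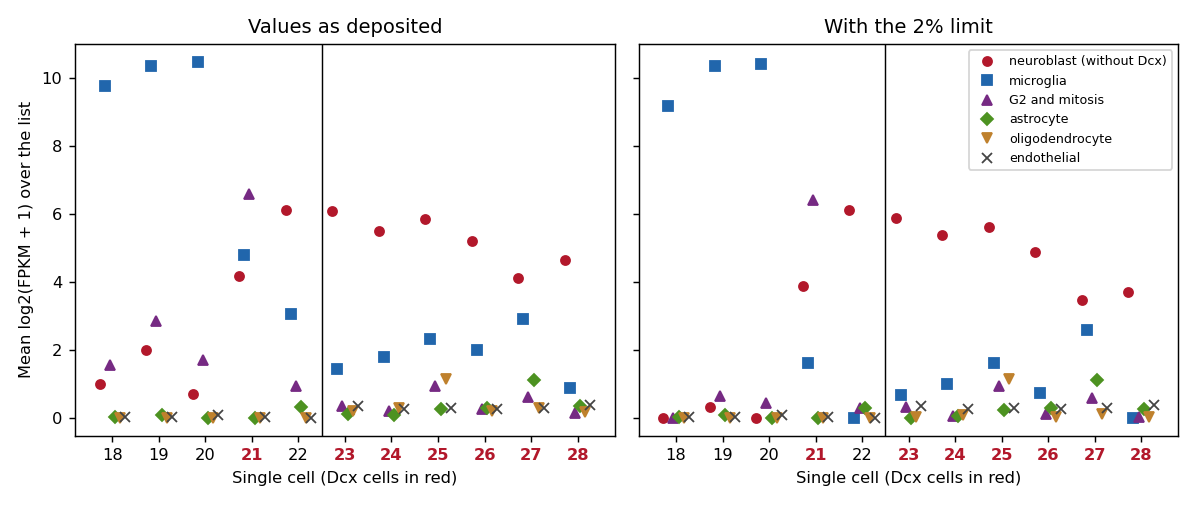
Mean log2(FPKM + 1) of 6 gene lists in cells 18 to 28 as deposited and with the 2% limit (1 symbol per list, the vertical line between the library sets). The neuroblast list is at 4.13 or more in every Dcx cell as deposited, the G2 and mitosis list is high in cell 21 only, and the microglial list is highest in cells 18 to 20.

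Cell 21 can be set against cells 18 to 20 of its own set. A gene was compared here if found in at least 1 of cells 18 to 21, so it could enter through cell 21 alone. The size of an excess depends partly on that filter. Cell 21 had 3 of 14 progenitor genes and 11 of 14 G2 and mitosis genes at FPKM 1 or more. With the 2% limit, cells 18 to 20 had 0 of the former and at most 1 of the latter. Over 9 neuroblast markers the median excess of cell 21 in log2(FPKM + 1) was 6.26, beside -0.64 for all 4544 genes compared. Other lists were as high or nearly so: the median excess was 7.19 for 11 G2 and mitosis genes, 6.76 for 3 progenitor genes, 4.79 for 8 chromatin genes, 4.33 for 18 cytoskeletal genes, 4.26 for 16 Dlx and related factors, 3.87 for 3 heat shock genes and 3.76 for 8 oxidative phosphorylation genes. It was -0.63 for 5 GABA genes, -0.36 for 10 adhesion and guidance genes and -6.01 for the 12 microglial markers. Neuroblast genes were thus 1 of several groups with an excess in cell 21. Dlx6os1 was at 622 FPKM against at most 7.33, Stmn2 at 767 against 13.7, Stmn1 at 3363 against 68.2, and Ccnd2 at 238 against 16.2. The values of cells 18 to 20 were at most 2.32% of the set's highest for each of Dlx6os1, Gad2, Stmn2, Dlx1, Crmp1, Stmn1, Stmn3, Ccnd2 and Sox4.

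Cell 22 lies under the Dcx threshold and held many neuroblast genes, and whether it is of the same kind was not tested. With Dcx at 0.0582 FPKM it is not a Dcx cell, yet its neuroblast list mean of 6.13 was above those of all 7. It held Dlx1 at 523, Dlx5 at 246, Stmn2 at 238, Pax6 at 549, Nrxn3 at 835 and Robo2 at 592 FPKM. Gad1 was at 316 and the chloride exporter Slc12a5 at 62.4, both of which the Dcx cells had at 2 or less. With the 2% limit, 43 of 93 neural genes were found in cell 22, 28 to 43 in the Dcx cells, and 6 to 9 in cells 18 to 20. Of the 43 in cell 22, each Dcx cell shared 21 to 29. Of all protein-coding genes, 1756 were found with the limit in cell 22 and 1142 to 2314 in the Dcx cells. Cells 18, 19 and 20 had 1065, 1107 and 955.

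The Dcx cells shared few genes with each other. Of 6200 protein-coding genes found in any of them with the 2% limit, 3374 were found in 1 cell only and 44 in all 7. As deposited, 547 of 6492 were found in all 7, and 707 in 6. A stricter set, chosen after the values were seen, held genes found with the limit in at least 6 Dcx cells and at most 1 of cells 1 to 17. It had 23 members (0.174% of 13197), of which 5 were protein-coding: Dcx, which chose the cells, and Dlx1, Gad2, Dchs1 and Dpysl5. Most of the rest were processed pseudogenes, which took 5.88 to 10.5% of the summed FPKM in cells 23 to 28 and 0.150% in cell 21.

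**Figure D5:**
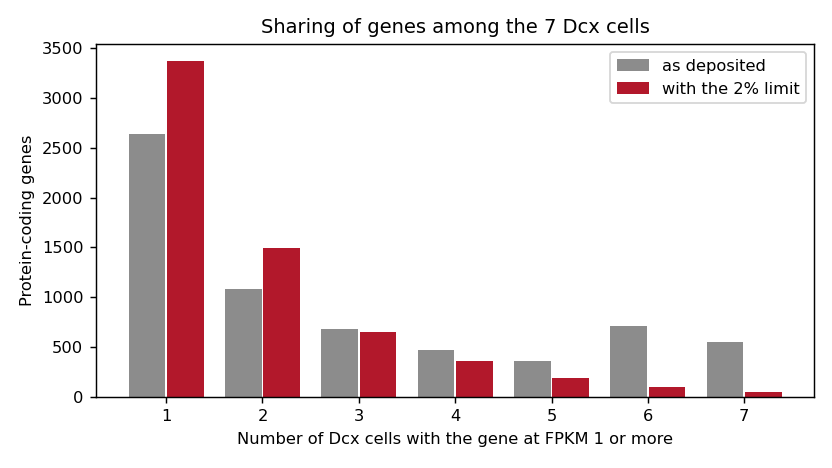
Number of protein-coding genes found (FPKM of at least 1) in exactly 1 to 7 of the Dcx cells, as deposited (grey) and with the 2% limit (red). Genes of 1 cell are the largest class in both (2642 and 3374), and those of all 7 fall from 547 to 44 with the limit.

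The leading genes of each Dcx cell were named by the excess over the median of the other 6 with the 2% limit, and some were abundant in 1 of those as well. They rank the Dcx cells among themselves only: among cells 1 to 17 they were found in 1 (Birc5) to 17 (Ndufs7, for example). Cell 21 led with Nosip (6772 FPKM), the mitotic activator Cdc20 (4067) and the mitotic survivin Birc5 (4307). Cell 23 led with the postsynaptic adaptor Dlgap4 (4965), Arfip2 (3192) and Dhrs1 (2940.2), and it was also the cell of Mapt, Dlx5 and Dlx6. Cell 24 led with Rnaseh2c (5449.8), the ribosomal Rpl37a (4165) and Uqcrq of the respiratory chain (3887; other Dcx cells reached 1199, 1042 and 3330 in that order), and had the most Meis2 and Dlx6os1.

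Cell 25 led with the endosomal GTPase Rab11a (3859 FPKM) and the mitochondrial subunits Sdha (3728) and Ndufs7 (2845). In cells 1 to 17 these were found in 15, 15 and 17 cells, at up to 2973, 1582 and 745 FPKM. Cell 26, the highest in Dcx and Gad2, led with Yrdc (8651), Cdipt (5066) and Grina (4847). Cell 27 led with the mitochondrial ribosomal Mrpl17 (7259), Gm17604 (5716) and Carkd (4299; 2425 in another Dcx cell). Cell 28 led with Gm17571 (217621), Pqbp1 (7321) and Gm21798 (4769), and it alone was high in the noncoding RNAs Meg3 (3926) and Sox2ot (1462). Gm17604, Gm17571 and Gm21798 were found in all 17 of cells 1 to 17, at up to 4359, 2309 and 183 FPKM.

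The pools of 10 cells carried little of this RNA. Their neuroblast list mean was 0.28 to 1.23 against 4.13 or more in the Dcx cells, Dlx6os1 and Dlx5 are listed at 0 in all 4, and Dlx1 and Gad2 reached 1.79 and 0.784 FPKM. Stmn1 reached 1374 and Cd24a 282, values that cells 1 to 17 also attained.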

How the data were processed

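The data are 1 table of FPKM for 28 single cells and 4 pools. Per the submitters' processing notes, the authors made these FPKM values with TopHat 1.41 and Cufflinks 2.02 on mm9. The deposited loci match GRCm38 instead: 37535 of 39011 gene IDs are in GENCODE M21 and 99.7% of these overlap the gene on GRCm38. The sources used here state neither strand setting nor read layout. FPKM fixes no fragment count, so no interval for counting error is given, and expression from a near-identical gene copy or pseudogene is uncertain.

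Lines of 1 symbol were summed, giving 38740 symbols, and 27 symbols that had become dates were restored from the gene ID. Python 3.11.15, numpy 2.4.6, pandas 2.3.3 and matplotlib 3.10.9 were used. A gene was compared if found (FPKM of at least 1) in at least 3 of the 24 cells, by the difference of mean log2(FPKM + 1), which understates changes of low genes, and was called 4-fold at a difference of 2. Values under 2% of a gene's highest in cells 18 to 22 or 23 to 28 were put at 0 for the 2% limit. No doublet caller was run. The computations were tested on simulated data.

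The Dcx cells and the 28 gene lists were chosen with earlier results of these data known. Named genes were the 4 markers, up to 6 most abundant genes per list and those under FPKM 1 in each Dcx cell, the 15 highest and 10 lowest protein-coding genes outside the lists, 3 leading genes per cell, and up to 3 genes per list of another cell type. Genes named beyond that, such as Nrxn3 and those of cell 22, were chosen after their values were seen. Alternatives changed the limit, pseudocount, filter, scaling, summary and cells. Some genes are not reported here.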

Additional observations from a re-analysis of the deposited data

Results flagged for a closer look

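Cell 21 lay outside the other 6 Dcx cells in 4 of the 37 sets of values checked for a single library far from the rest. Its mean log2(FPKM + 1) over the G2 and mitosis genes was 6.60, against 0.16 to 0.94 in the others. Its endothelial list mean was 0.0148 against 0.26 to 0.39. Protein-coding genes took 92.7% of its summed FPKM against 29.8 to 52.6%, and microRNA loci 1.82% against 26.6 to 39.9%. The other 4 cells of the library set of cell 21 had endothelial list means of 0.0130 to 0.0979. Their protein-coding shares were 80.9 to 94.6%, and their microRNA shares 1.27 to 13.5%. Cell 21 lay within these ranges, so these values do not set it apart from its set. For the G2 and mitosis genes those cells had means of 0.95 to 2.87, below the 6.60 of cell 21.

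Cell 25 stood highest for the oligodendrocyte list at 1.15 (others at most 0.30), for the erythroid list at 2.19 (at most 0.68) and for the choroid plexus list at 0.0778 (at most 0.0236). Cnp was its leading oligodendrocyte gene, and Hba-a1 and Hba-a2 carried the erythroid value. Cell 27 stood highest for the astrocyte list at 1.12 (at most 0.36), with Aldoc as its leading gene. Cell 23 stood highest for the glutamatergic lineage list at 0.35 (at most 0.15), through Tbr1, and for the ependymal list at 0.14 (at most 0.0256). All are means of log2(FPKM + 1) over the list. Here 10 values were flagged. The rule flags about 1 in 20 sets of independent, normally spread values, whereas the Dcx cells come from 2 library sets and several list means lie near 0. The count of 10 is therefore not set against that rate.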

How the results depend on the processing

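The number of Dcx cells was 7 with limits of 1% and 2%, 5 with 5%, 6 at thresholds of FPKM 5 or 10, and 16 at 0.1. Genes 4-fold higher (618) were 300, 241 and 202 with limits of 1%, 2% and 5%, 1299 and 162 with pseudocounts of 0.1 and 10, and 2582 with upper quartile scaling. With the 2% limit they were 316 without cell 21, 349 without cells 21 and 27 and 234 with sum scaling, settings added after the data were seen, as were the others that combine the limit or leave out both cells. Genes 4-fold lower (2473) were 5057 and 622 with the pseudocounts, 1277 with upper quartile scaling and 4077 for cell 21 alone. Genes above every other cell (20) were 7, 6 and 3 with the limits, 50 with upper quartile scaling, 76 for cells 23 to 28 and 520 for cell 21 alone, and 86 without cells 21 and 27 (with the limit 32), and 6 with the limit and sum scaling. The neuroblast list median (4.48) was 7.34 and 2.44 with the pseudocounts, 6.48 with upper quartile scaling and 6.20 for cell 21 alone. The GABA median (0.80) was 2.59 with upper quartile scaling and -1.42 for cell 21 alone. Within cells 18 to 22, the excess of cell 21 in neuroblast genes (6.26) was 7.77 and 9.01 with limits of 2% and 5% and 3.86 with a pseudocount of 10. The cause of these shifts was not tested. Leaving out each Dcx cell in turn gave 584 to 790 genes higher, 2397 to 2655 lower, 20 to 76 above every other cell, 3.83 to 5.20 for the neuroblast median and -0.04 to 1.23 for the GABA median. Of 724 values for 35 named genes, 647 moved by less than the spread among the Dcx cells, 75 moved by more, and 2 reversed, Nsg2 (-1.92) and Trp53i11 (-0.88) for cell 21 alone. No paired analysis was possible because no test was run and the replicate numbers only name cells.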
